A study of Mus musculus with 6 samples.

Results

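The genes described here encode the proton pump of the lysosome, the ion channels that sit beside it and the complex that ties amino acid supply at the lysosomal membrane to growth signalling. They were chosen by symbol: every entry whose symbol begins with Atp6v or Atp6ap, and 15 named genes, namely Mcoln1, Clcn7, Ostm1, Tpcn1, Tpcn2, Tmem175, the 5 Lamtor genes, Rraga, Rragc, Rragd and Slc38a9. The rule found 43 of the 54446 entries. It used no measured value, but the genes were chosen with earlier results of these data known. Of the 43, 13 encode subunits of the cytosolic V1 sector of the pump, 9 encode subunits of its membrane-embedded V0 sector and 2 encode its accessory proteins. Another 6 are channels, transporters or their partners, 5 are Ragulator subunits and 4 are Rag GTPases or an amino acid sensor. The last 4 (Atp6ap1l, Atp6v0c-ps1, Atp6v0c-ps2 and Atp6v1fnb) came in through the start of their symbol and are not counted here as pump subunits. Of these, Atp6v0c-ps1 and Atp6v0c-ps2 are annotated as processed pseudogenes.

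The vacuolar-type ATPase burns ATP in V1 to turn a rotor that carries protons through V0 into the lumen, and the acid it makes lets lysosomal hydrolases work. Chloride entering through the product of Clcn7 balances that charge, and cation channels such as the product of Mcoln1 release calcium and other cations from the lumen. Ragulator, a scaffold of Lamtor proteins, holds the Rag GTPases at the same membrane, where they recruit the kinase complex mTORC1 when amino acids are plentiful. Macrophages use this machinery to acidify phagosomes and digest what they have taken up.

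RNA sequencing had been done on bone marrow-derived macrophages of 6-week-old C57BL/6 mice. They had been given PBS, a buffer, 5 µM KN93 or 10 µM KN93, with 2 samples in each of the 3 groups. KN93 is a small molecule that inhibits calcium/calmodulin-dependent protein kinase II. All groups share strain, age and tissue in the labels, and neither the length of treatment nor the way the marrow was differentiated is given in the sources used here. The labels do not state whether samples of 1 group are separate cultures or animals, so the p-values reflect the spread among these samples alone, part or all of which may be technical. Values are FPKM (fragments per kilobase of gene for each 1000000 fragments of the library), and log2 changes are of FPKM + 1.

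The library totals implied by the FPKM ran from 24.2 to 28.4, in units of 1000000 fragments. All 10 macrophage markers checked reached 1 FPKM in every sample, but their level moved with dose: their summed FPKM was 19910 and 19380 in PBS samples, 15290 and 14790 at 5 µM and 8442 and 9300 at 10 µM. Most of that sum was Lyz2, with 15400 and 15052 FPKM in PBS samples, 11722 and 11212 at 5 µM and 5849 and 6568 at 10 µM. Of all genes tested, 28.5% rose and 22% fell at 10 µM, the shares to set beside the marker counts. At 10 µM 8 of the 10 macrophage markers fell, C1qa, Itgam, Cd14 and Mrc1 with the smallest p among them, and Cd68, named after its values were seen, rose. Summed FPKM of 12 stromal and fibroblast markers was 2324 and 2267 in PBS samples, 774 and 639.8 at 5 µM and 483 and 456.5 at 10 µM, where 8 of the 10 tested fell. For 10 neutrophil markers it was 175 and 172 in PBS samples, 84.8 and 96.3 at 5 µM and 51.6 and 57.3 at 10 µM, where all 6 tested fell. The 8 osteoclast markers summed to 98.4 and 92.0 FPKM in PBS samples, 116 and 118 FPKM at 5 µM and 91.0 and 97.3 at 10 µM, where 3 of the 4 tested rose and 1 fell, and 4 (Calcr, Oscar, Ocstamp and Dcstamp) were below the limit for testing. The 6 dendritic cell markers summed to between 0.308 and 0.472 FPKM, and the 7 lymphocyte markers to 3.82 and 4.45 FPKM in PBS samples, 4.18 and 4.46 FPKM at 5 µM and 2.16 and 2.11 FPKM at 10 µM. Nearly all of the lymphocyte sum was Cd4, the 1 gene of that list tested, which fell at 10 µM, and Cd3d, a T cell marker, was at 0 in all 6 samples. In bulk samples, fewer cells of a type and less RNA per cell cannot be told apart, and the part of these shifts in the results below was not tested.

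Most of the machinery was expressed more strongly in KN93-treated cells. Of the 43 genes, 34 reached 1 FPKM in at least 2 samples and were tested, and each of the 34 in fact reached it in all 6 samples. At 5 µM, 25 of the 34 rose and 1 fell against PBS at an adjusted p under 0.05 (limma, Benjamini-Hochberg over 12722 genes), while 15.1% of all tested genes rose and 15.4% fell, together 30.5%. At 10 µM, 23 rose and 2 fell, beside 28.5% and 22% of all genes, together 50.5%. The median log2 change of the 34 genes was 0.32 at 5 µM and 0.46 at 10 µM, against 0.01 and 0.05 over all genes tested. Both comparisons used the same PBS samples. The largest rises at 10 µM were those of Rragd, Atp6v0d2, Clcn7, Atp6v1c1 and Mcoln1, and the 2 genes that fell were Tpcn1 and Tpcn2. Without PBS replicate 1 the count of calls at 5 µM was 15, beside 14.9% of all genes in that fit, and without 5 µM replicate 2 it was 17, beside 15.6%. At 10 µM, with any sample left out, the log2 change ran from 2.33 to 2.77 for Rragd, the largest rise. For Tpcn1, the largest fall, it ran from -0.75 to -0.66.

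**Figure D1:**
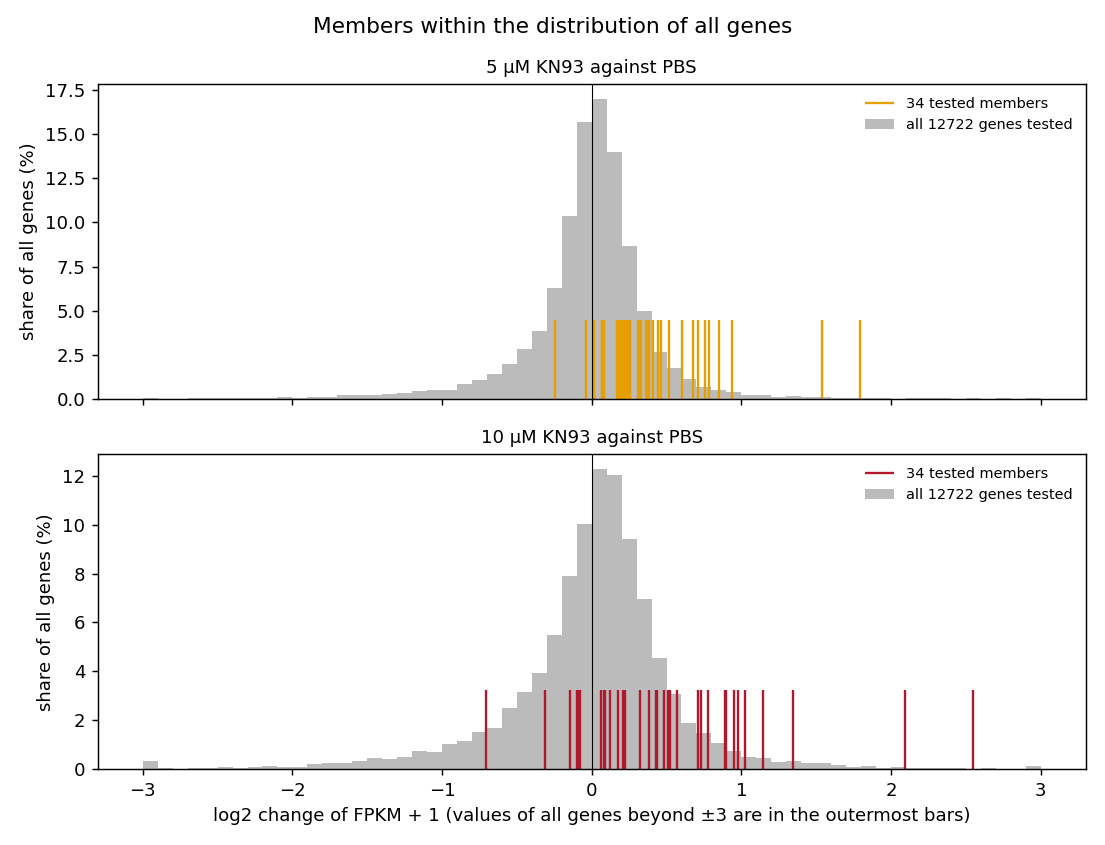
Log2 change of FPKM + 1 (x axis) of the 34 tested genes (coloured lines) drawn on the distribution of all 12722 genes tested (grey bars, in percent of genes), for 5 µM KN93 minus PBS above and 10 µM KN93 minus PBS below. Most lines lie to the right of 0, around medians of 0.32 and 0.46, while the grey bars centre near 0.

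**Figure D2:**
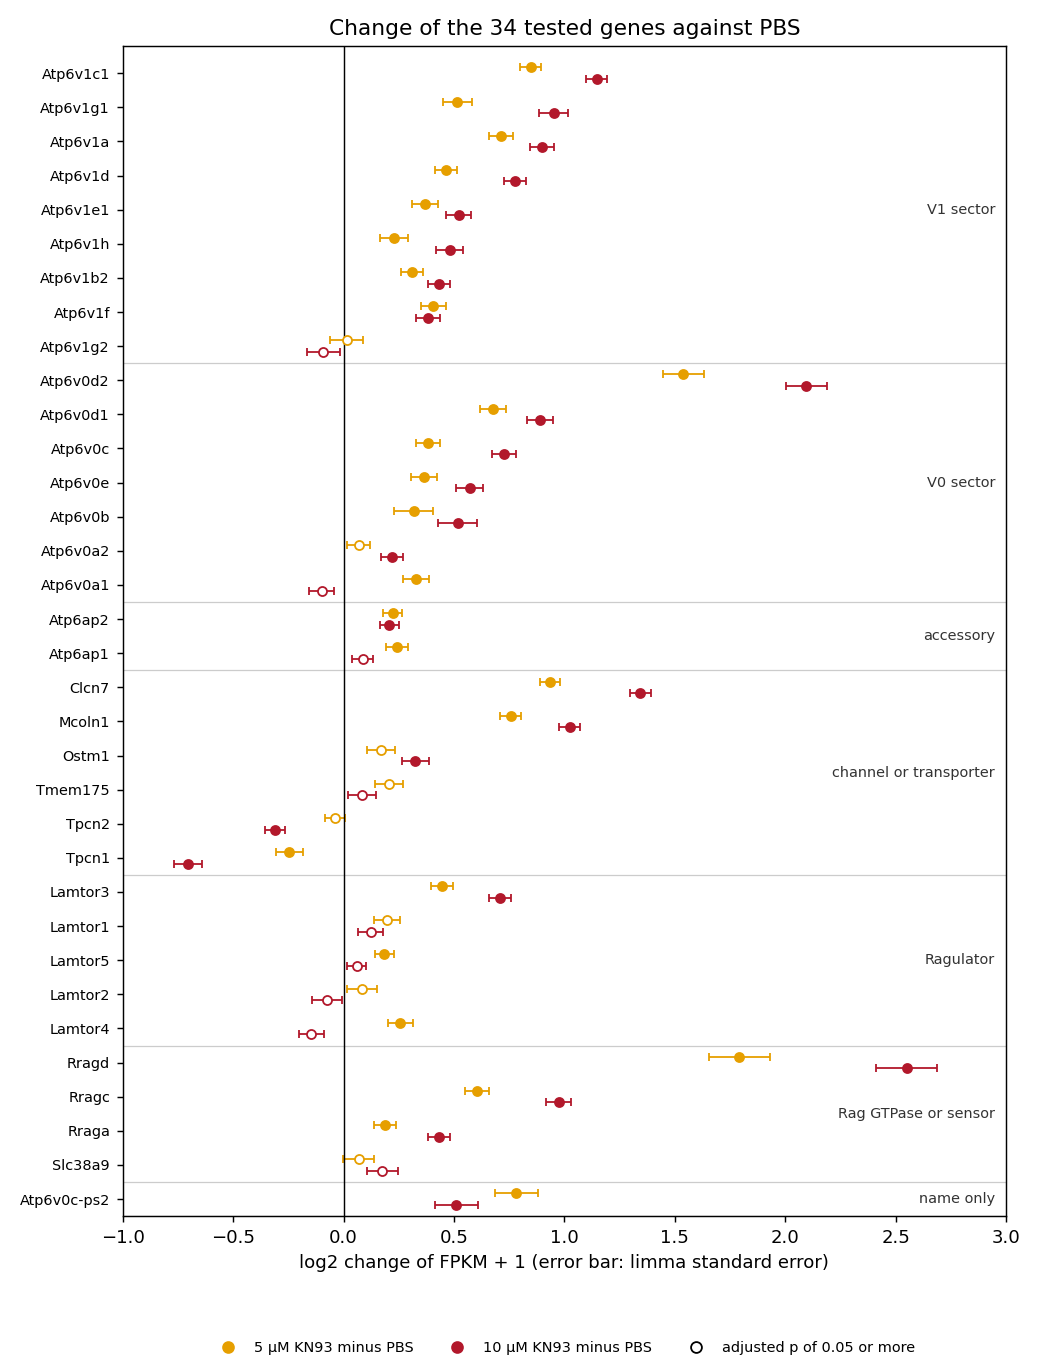
Log2 change of FPKM + 1 against PBS (x axis, error bars are limma standard errors) for each tested gene, grouped by role, at 5 µM (orange) and 10 µM KN93 (red), with n = 2 per group and open symbols for an adjusted p of 0.05 or more. V1 and V0 genes lie almost all to the right of 0, whereas Tpcn1 and Tpcn2 lie to the left at 10 µM.

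Promoter sequences, from 250 bases before to 50 after a gene start in RefSeq (GRCm38.p6), were available for 32 of the 43 genes and 25 of the 34 tested. That start need not be the outer end of the annotated gene. For Atp6v0e, on the plus strand, the stretch shown begins at 26676383 and the annotated gene at 26663231. The promoters are shown because many lysosomal genes are known targets of TFEB and its relatives, transcription factors that bind an E-box with the letters TCACGTG. A match to TCACGTG on either strand, which contains the shorter E-box CACGTG, was found in 9 of these 25 promoters (36%), against 643 of 8766 tested genes with a promoter (7.34%) and 3.77% of all 32851 promoters. TCACGTG was looked for because many lysosomal genes are known targets of that family, and these genes were chosen as lysosomal. A high share among them describes that choice and is no result about KN93. In the sequences below, written 5′ to 3′ on the strand of the gene, capitals mark each match. Whole promoters are given for Clcn7 (chr17:25133141-25133440, plus strand) and Mcoln1 (chr8:3500269-3500568, plus strand), which rose and hold 2 matches each, and for Rragd (chr4:32982748-32983047, plus strand), which had the largest rise and holds none:
Clcn7: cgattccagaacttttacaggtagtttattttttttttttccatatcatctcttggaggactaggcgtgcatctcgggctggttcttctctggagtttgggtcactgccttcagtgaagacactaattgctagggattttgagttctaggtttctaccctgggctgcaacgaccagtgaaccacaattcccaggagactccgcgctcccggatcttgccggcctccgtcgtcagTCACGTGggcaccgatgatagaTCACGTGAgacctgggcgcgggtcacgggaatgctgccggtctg
Mcoln1: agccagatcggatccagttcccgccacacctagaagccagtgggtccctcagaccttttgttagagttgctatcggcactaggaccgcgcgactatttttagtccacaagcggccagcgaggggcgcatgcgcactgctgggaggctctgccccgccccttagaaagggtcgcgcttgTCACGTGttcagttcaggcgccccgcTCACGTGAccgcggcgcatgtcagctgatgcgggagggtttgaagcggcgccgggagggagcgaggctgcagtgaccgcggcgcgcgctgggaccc
Rragd: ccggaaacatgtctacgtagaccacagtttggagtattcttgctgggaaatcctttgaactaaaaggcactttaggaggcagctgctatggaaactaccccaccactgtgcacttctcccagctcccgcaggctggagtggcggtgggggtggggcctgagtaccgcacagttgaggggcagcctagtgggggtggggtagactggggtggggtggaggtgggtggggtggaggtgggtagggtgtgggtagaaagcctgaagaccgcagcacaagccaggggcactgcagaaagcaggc
For the other 7 genes with a match, the match is shown with 15 bases on each side, for Atp6v0d1 (chr8:105566046-105566083, minus strand), Atp6v1a (chr16:44139369-44139406, minus strand), Atp6v0e (chr17:26676383-26676420, plus strand), Atp6v0b (chr4:117887327-117887381, minus strand), Rragc (chr4:123917306-123917342, plus strand), Lamtor1 (chr7:101905753-101905789, plus strand) and Lamtor4 (chr5:138255347-138255398, plus strand):
Atp6v0d1: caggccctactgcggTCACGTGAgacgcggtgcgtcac
Atp6v1a: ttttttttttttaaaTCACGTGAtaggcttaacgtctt
Atp6v0e: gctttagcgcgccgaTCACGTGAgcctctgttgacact
Atp6v0b: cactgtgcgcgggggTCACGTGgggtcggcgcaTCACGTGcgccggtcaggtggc
Rragc: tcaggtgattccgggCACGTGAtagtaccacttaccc
Lamtor1: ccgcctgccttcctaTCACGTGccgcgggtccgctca
Lamtor4: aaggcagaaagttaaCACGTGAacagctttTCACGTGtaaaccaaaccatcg
The matches in Clcn7 and Atp6v0d1 lie across or next to the start, and those in Atp6v1a, Lamtor4 and Rragc begin at positions -132, -120 and -112, counted from the start as position 0. At 10 µM, 7 of the 9 genes with a match rose and none fell, with a median log2 change of 0.89. Of the 16 without a match, 8 rose and 1 fell, with a median of 0.19. This contrast leaves out the tested genes that had no promoter sequence. They are Atp6v0a2, Atp6v0c-ps2, Atp6v0d2, Atp6v1b2, Atp6v1c1, Atp6v1g1, Atp6v1h, Lamtor3 and Tpcn1. All of them rose at 10 µM except Tpcn1, which fell, and Atp6v0d2 and Atp6v1c1 had some of the largest rises. Over all tested genes with a promoter, 40.4% of those with a match rose at 10 µM, as did 30.1% of those without one. At 5 µM, 8 of the 9 with a match and 10 of the 16 without one rose, beside 25.2% and 15.4% of all such genes. Tcirg1, a pump gene outside the symbol rule, rose at 10 µM and held no match in its 3 promoters. Lamtor1 and Lamtor4 hold a match and did not pass the test at 10 µM, and Rragd, without one in this window, rose most. A match is a description of letters and not a measured binding site.

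In the V1 sector, 8 of the 9 tested genes rose at 5 µM and the same count rose at 10 µM, and none fell. That is 88.9% at each dose, beside 15.1% of all genes tested at 5 µM and 28.5% at 10 µM. Atp6v1a encodes the catalytic A subunit, whose nucleotide sites hydrolyse ATP. It had 72.2 and 77.1 FPKM with PBS, 119.7 and 126 FPKM at 5 µM and 141 and 139 FPKM at 10 µM. Atp6v1b2 encodes the B subunit that alternates with A in the V1 ring. It had 81.3 and 86.1 FPKM with PBS, 104 and 105 FPKM at 5 µM and 115 and 111 FPKM at 10 µM. At 10 µM against PBS the log2 change was 0.90 ± 0.05 for Atp6v1a (limma adjusted p = 0.00013) and 0.43 ± 0.05 for Atp6v1b2 (limma adjusted p = 0.00117), and the difference between the rises of these ring partners was not tested. Without PBS replicate 1 the call of Atp6v1b2 at 5 µM was lost (limma adjusted p = 0.0508).

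The V1 gene with the largest rise was Atp6v1c1 (chr15:38661933-38692446, GRCm38), whose C subunit clamps V1 to V0 and in yeast leaves the pump when the sectors come apart. It had 27.0 and 28.4 FPKM with PBS, 50.4 and 51.0 FPKM at 5 µM and 61.8 and 63.4 FPKM at 10 µM, so every treated sample lay above both PBS samples and the 10 µM samples lay highest. Its mean FPKM at 10 µM was 2.26 times that with PBS (log2 change 1.15 ± 0.05, limma adjusted p = 4.35e-05). Next came Atp6v1g1, for a subunit of the peripheral stalks, with 75.3 and 76.6 FPKM with PBS, 109.8 and 108 FPKM at 5 µM and 139 and 157 FPKM at 10 µM (log2 change at 10 µM 0.95 ± 0.07, limma adjusted p = 0.0002). Atp6v1e1, which encodes the other stalk subunit, had 34.4 and 34.6 FPKM with PBS, 45.5 and 44.2 FPKM at 5 µM and 47.5 and 52.4 FPKM at 10 µM (log2 change at 10 µM 0.52 ± 0.06, limma adjusted p = 0.0011).

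The central rotor shaft is built from D and F. Atp6v1d had 15.04 and 15.5 FPKM with PBS, 21.8 and 21.1 FPKM at 5 µM and 26.1 and 27.6 FPKM at 10 µM, a log2 change of 0.78 ± 0.05 at 10 µM (limma adjusted p = 0.000154). Atp6v1f had 106 and 108 FPKM with PBS, 144 and 139.9 FPKM at 5 µM and 134 and 145 FPKM at 10 µM, with the treated doses overlapping each other above PBS (log2 change at 10 µM 0.38 ± 0.06, limma adjusted p = 0.00275). Atp6v1h, for the regulatory H subunit that in yeast silences ATP hydrolysis by free V1, had 8.87 and 9.09 FPKM with PBS, 11.3 and 10.1 FPKM at 5 µM and 13.0 and 12.9 FPKM at 10 µM. It rose at 10 µM (log2 change 0.48 ± 0.06, limma adjusted p = 0.00179). At 5 µM its call (limma adjusted p = 0.0398) was lost without either PBS sample, without 5 µM replicate 1 and without either 10 µM sample (limma adjusted p from 0.061 to 0.164). The exception in this sector was Atp6v1g2, a G form best known from neurons, at 2.65 and 3.09 FPKM with PBS, 2.89 and 2.92 FPKM at 5 µM and 2.62 and 2.64 FPKM at 10 µM. Its change at 10 µM was -0.09 (95% interval -0.28 to 0.10).

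In the V0 sector, 6 of the 7 tested genes rose at each dose against PBS and none fell. The exception was Atp6v0a2 at 5 µM and Atp6v0a1 at 10 µM. The share that rose was 85.7% at each dose, beside 15.1% of all genes tested at 5 µM and 28.5% at 10 µM. Atp6v0d2 (chr4:19876841-19922605) changed most. It encodes the d2 form of the subunit that links the rotor shaft to the proton-carrying ring, a form known from osteoclasts and macrophages. It had 22.7 and 27.4 FPKM with PBS, 73.6 and 75.1 FPKM at 5 µM and 106 and 114 FPKM at 10 µM, with no overlap between any groups. The mean at 10 µM was 4.39 times the PBS mean and that at 5 µM 2.97 times (log2 changes 2.09 ± 0.09 and 1.54 ± 0.09, limma adjusted p = 5.3e-05 and 0.000526). The ubiquitous d1 form, Atp6v0d1, had 87.4 and 88.7 FPKM with PBS, 144 and 139 FPKM at 5 µM and 157 and 172 FPKM at 10 µM and rose less, by 0.89 ± 0.06 at 10 µM (limma adjusted p = 0.000171). As a share of the summed FPKM of d1 and d2, Atp6v0d2 made up 20.6% and 23.6% in PBS samples, 33.8% and 35.2% at 5 µM and 40.3% and 39.9% at 10 µM. The 3 groups did not overlap in this share. With 2 samples a group an exact permutation test cannot go below p = 0.333, so shares are given without a test.

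The a subunit, which holds the proton channels through the membrane and directs the pump to a compartment, is made from several genes. Tcirg1, which encodes the a3 form of lysosomes and the osteoclast border, falls outside the symbol rule but supplied most of the a transcripts. It had 123 and 128 FPKM with PBS, 195 and 197 FPKM at 5 µM and 223 and 235 FPKM at 10 µM (log2 change at 10 µM 0.86 ± 0.05, limma adjusted p = 0.000121). Its share of the summed FPKM of the a genes was 75.0% and 75.0% in PBS samples, 79.8% and 79.4% at 5 µM and 83.9% and 85.2% at 10 µM. Atp6v0a1 went the other way in share, 17.8% and 18.3% in PBS samples, 15.2% and 15.7% at 5 µM and 10.8% and 9.96% at 10 µM. In level, Atp6v0a1 had 29.1 and 31.2 FPKM with PBS, 37.1 and 39.1 FPKM at 5 µM and 28.7 and 27.5 FPKM at 10 µM. It rose at 5 µM (0.33 ± 0.06, limma adjusted p = 0.0103), a call lost without PBS replicate 1 (0.0596) or 5 µM replicate 2 (0.0627), and differed from PBS by -0.10 at 10 µM (95% interval -0.24 to 0.04). Atp6v0a2, the form of the Golgi and early endosomes, had 11.9 and 11.3 FPKM with PBS, 12.3 and 12.1 FPKM at 5 µM and 13.9 and 13.4 FPKM at 10 µM. Its small rise at 10 µM (0.22 ± 0.05, limma adjusted p = 0.0149) was lost without PBS replicate 2 (0.085) or 10 µM replicate 1 (0.0574).

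**Figure D3:**
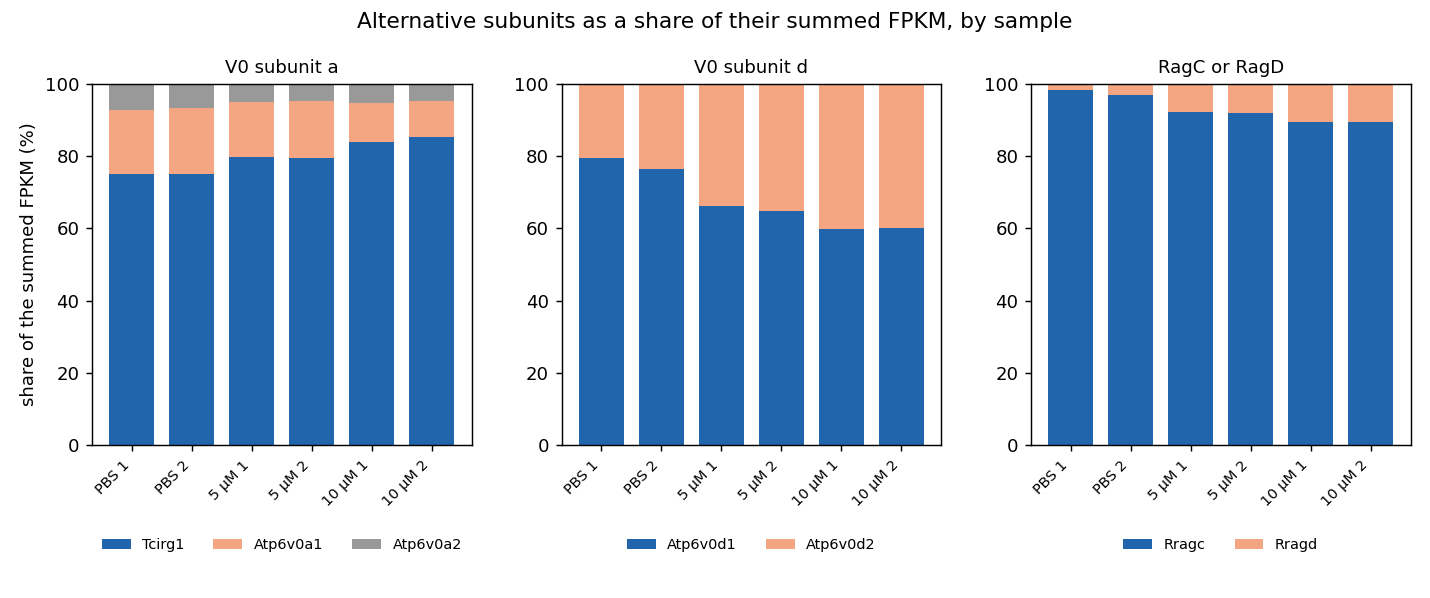
Share of the summed FPKM (y axis, percent) held by alternative genes for V0 subunit a, V0 subunit d and the RagC or RagD partner, with 1 bar per sample. The shares of Tcirg1, Atp6v0d2 and Rragd are higher in each 10 µM sample than in each PBS sample.

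The proteolipid ring that carries protons is built from c and b subunits. Atp6v0c had 52.5 and 48.4 FPKM with PBS, 65.6 and 66.4 FPKM at 5 µM and 82.2 and 86.1 FPKM at 10 µM (log2 change at 10 µM 0.73 ± 0.06, limma adjusted p = 0.000279). Atp6v0c-ps2, a single-exon copy of it on chromosome 6 annotated as a pseudogene, had 11.03 and 11.4 FPKM with PBS, 22.2 and 18.002 FPKM at 5 µM and 16.6 and 16.1 FPKM at 10 µM. It rose at both doses, but fragments of the gene and its copy may have been shared in counting, so this value is uncertain. Atp6v0b had 83.6 and 90.2 FPKM with PBS, 109 and 108 FPKM at 5 µM and 115 and 136 FPKM at 10 µM (log2 change at 10 µM 0.52 ± 0.09, limma adjusted p = 0.00501). Its call at 5 µM (limma adjusted p = 0.0426) was lost when any sample of the 5 µM or PBS group was left out (0.0857 to 0.183). Atp6v0e, which encodes the small e subunit, had 32.8 and 34.6 FPKM with PBS, 43.5 and 43.9 FPKM at 5 µM and 48.2 and 52.9 FPKM at 10 µM and rose by 0.57 ± 0.06 at 10 µM (limma adjusted p = 0.000864). At 5 µM its call was lost without PBS replicate 1 (limma adjusted p = 0.0544) or 5 µM replicate 2 (0.0518).

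Both accessory genes rose at 5 µM, and Atp6ap2 also at 10 µM. Atp6ap1, which encodes a chaperone-like subunit needed for V0 assembly and had the highest mean level of the 34 genes with PBS, had 151 and 153 FPKM with PBS, 176 and 185 FPKM at 5 µM and 159 and 164 FPKM at 10 µM. It rose at 5 µM (0.24 ± 0.05, limma adjusted p = 0.0164) and differed from PBS by 0.09 at 10 µM (95% interval -0.03 to 0.21). Its call at 5 µM was lost without either PBS sample or 5 µM replicate 2 (limma adjusted p from 0.0714 to 0.091). Atp6ap2, which encodes the prorenin receptor, had 75.2 and 76.1 FPKM with PBS, 89.2 and 87.6 FPKM at 5 µM and 86.1 and 88.9 FPKM at 10 µM. Its rises of 0.22 ± 0.04 at 5 µM and 0.21 ± 0.04 at 10 µM passed the test, the first not without any 1 of the 4 samples of those groups (limma adjusted p from 0.0658 to 0.0865) and the second not without PBS replicate 1 (0.0629).

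The channels and transporters split in direction. At 10 µM, 3 of the 6 rose and 2 fell (50% and 33.3%, beside 28.5% and 22% of all genes tested). At 5 µM, 2 rose and 1 fell (33.3% and 16.7%, beside 15.1% and 15.4% of all genes). Clcn7 (chr17:25133391-25162104), which encodes the lysosomal chloride-proton exchanger, had 59.3 and 58.5 FPKM with PBS, 111 and 116 FPKM at 5 µM and 149 and 153 FPKM at 10 µM, a complete separation of the 3 groups. Its mean at 10 µM was 2.56 times that with PBS and at 5 µM 1.93 times (log2 changes 1.34 ± 0.05 and 0.93 ± 0.05, limma adjusted p = 2.92e-05 and 0.000284). Ranked by mean FPKM among the 34 genes, Clcn7 stood at place 10 in PBS samples, 5 at 5 µM and 3 at 10 µM. Ostm1, which encodes the partner that the exchanger needs for stability, had 11.1 and 11.99 FPKM with PBS, 12.8 and 13.4 FPKM at 5 µM and 14.2 and 15.2 FPKM at 10 µM. It rose at 10 µM (0.33 ± 0.06, limma adjusted p = 0.00756), and its change at 5 µM was 0.17 (95% interval 0.01 to 0.32, limma adjusted p = 0.0935). The rise of the exchanger's mRNA was larger than that of its partner's in both comparisons, and the difference between them was not tested.

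Mcoln1 (chr8:3500457-3515232) encodes a calcium-releasing channel opened by a lysosomal phosphoinositide. It had 9.85 and 10.2 FPKM with PBS, 17.5 and 17.9 FPKM at 5 µM and 21.1 and 21.9 FPKM at 10 µM, and its mean was 2.14 times that with PBS at 10 µM and 1.76 times at 5 µM (log2 changes 1.02 ± 0.05 and 0.76 ± 0.05, limma adjusted p = 5.93e-05 and 0.000582). The endolysosomal cation channel genes Tpcn1 and Tpcn2 both fell at 10 µM. Tpcn1 (chr5:120534153-120588673), found mainly on endosomes, had 8.25 and 8.45 FPKM with PBS, 6.60 and 7.17 FPKM at 5 µM and 4.57 and 4.90 FPKM at 10 µM, and each treated sample lay below both PBS samples. It fell by 0.70 on the log2 scale at 10 µM (SE 0.06, limma adjusted p = 0.000446). At 5 µM the fall of -0.25 ± 0.06 (limma adjusted p = 0.0321) was lost when any sample of either group was left out (0.062 to 0.149). Tpcn2 (chr7:145186524-145284011), found on lysosomes, had 30.4 and 30.7 FPKM with PBS, 29.7 and 29.6 FPKM at 5 µM and 25.1 and 23.8 FPKM at 10 µM. It fell by 0.31 at 10 µM (SE 0.05, limma adjusted p = 0.003), and its change at 5 µM was -0.04 (95% interval -0.15 to 0.07).

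Tmem175, for a lysosomal potassium and proton channel, had 7.28 and 7.33 FPKM with PBS, 8.77 and 8.41 FPKM at 5 µM and 7.40 and 8.21 FPKM at 10 µM. Its changes of 0.21 at 5 µM (95% interval 0.05 to 0.36, limma adjusted p = 0.0546) and 0.08 at 10 µM (95% interval -0.07 to 0.24) did not pass the test. At 5 µM it did pass without either 10 µM sample (limma adjusted p = 0.0369 and 0.0371). Of its exon bases, 35.3% are shared with Dgkq on the opposite strand, and without a stated use of strand the fragments of the 2 genes cannot be told apart. The same holds for Lamtor1, which shares 18.7% of its exon bases with Lrrc51, and for Atp6v0b, which shares 11.8% with Gm12841. Atp6v0a2, Rragc, Atp6v1g2 and Ostm1 share smaller parts with genes on the opposite strand, at 9.86%, 7.9%, 5.74% and 5.69%.

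**Figure D4:**
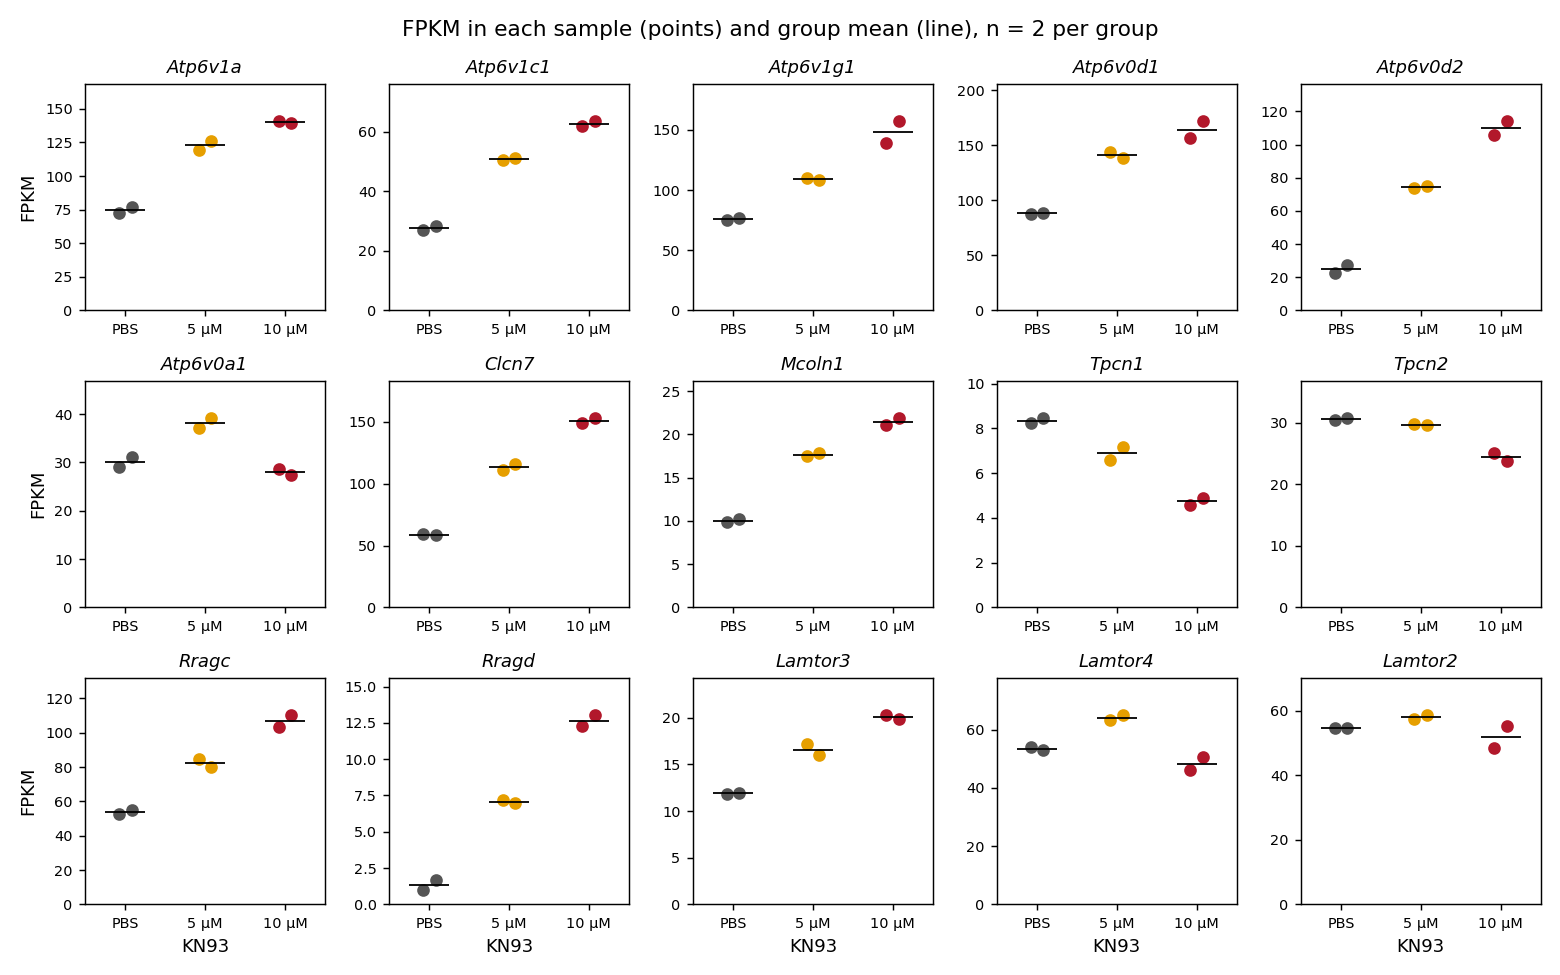
FPKM in each sample (points) and group mean (line) for 15 of the genes, with treatment on the x axis and an axis from 0 for each gene. Clcn7, Mcoln1, Atp6v0d2 and Rragd are highest at 10 µM, Tpcn1 is lowest there, and Lamtor4 and Atp6v0a1 are highest at 5 µM.

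Of the 5 Ragulator genes, 3 rose at 5 µM and 1 at 10 µM against PBS (60% and 20%), with none falling. Of all genes tested, 15.1% rose at 5 µM and 28.5% at 10 µM, so the Ragulator share at 10 µM was below that of all genes. All 5 log2 changes were above 0 at 5 µM, and the mean FPKM of Lamtor1, Lamtor2, Lamtor4 and Lamtor5 was highest at 5 µM and that of Lamtor3 at 10 µM. Against 5 µM, the changes of those 4 genes at 10 µM were below 0, of which that of Lamtor4 passed the test. These comparisons share the 5 µM samples. Lamtor3, one of the roadblock-fold subunits inside the scaffold, had 11.9 and 11.9 FPKM with PBS, 17.1 and 16.0 FPKM at 5 µM and 20.3 and 19.9 FPKM at 10 µM, with 3 separate groups (log2 change at 10 µM 0.71 ± 0.05, limma adjusted p = 0.000222). Its structural partner Lamtor2 had 54.8 and 54.6 FPKM with PBS, 57.4 and 58.6 FPKM at 5 µM and 48.6 and 55.3 FPKM at 10 µM, a change at 10 µM of -0.08 (95% interval -0.24 to 0.09). Lamtor1, whose lipid anchor holds the complex on the membrane and which wraps the other subunits, had 56.0 and 52.6 FPKM with PBS, 62.4 and 62.4 FPKM at 5 µM and 57.0 and 61.5 FPKM at 10 µM. Its change was 0.12 at 10 µM (95% interval -0.02 to 0.27) and 0.20 at 5 µM (95% interval 0.05 to 0.34, limma adjusted p = 0.0504), and the 5 µM value passed without either 10 µM sample (0.0428 for each).

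Lamtor4 and Lamtor5 form the other pair of the scaffold. Lamtor4 had 54.1 and 52.9 FPKM with PBS, 63.4 and 64.8 FPKM at 5 µM and 45.9 and 50.7 FPKM at 10 µM. It rose by 0.26 ± 0.06 at 5 µM (limma adjusted p = 0.0236) and changed by -0.15 at 10 µM (95% interval -0.29 to -0.0002, limma adjusted p = 0.0881). The call at 5 µM was lost when any sample of the 5 µM or PBS group was left out (limma adjusted p from 0.0838 to 0.108), and without 10 µM replicate 2 the value at 10 µM passed as a fall (0.0304). Lamtor5 had 61.5 and 61.9 FPKM with PBS, 71.1 and 69.4 FPKM at 5 µM and 64.7 and 63.9 FPKM at 10 µM and rose by 0.18 ± 0.04 at 5 µM (limma adjusted p = 0.023). That call too was lost without any 1 of these 4 samples (limma adjusted p from 0.0817 to 0.118). At 10 µM its change was 0.06 (95% interval -0.04 to 0.16).

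The 3 Rag GTPase genes rose at both doses, and Rragd (chr4:32983037-33022180) showed the largest change of all 34 genes. A Rag heterodimer pairs RagA or RagB with RagC or RagD, and Rragd is known as a target of the TFEB family. It had 1.01 and 1.71 FPKM with PBS, 7.17 and 6.99 FPKM at 5 µM and 12.3 and 13.0 FPKM at 10 µM, so the PBS samples stood far below the rest. On the log2(FPKM + 1) scale it rose by 2.55 ± 0.14 at 10 µM and 1.79 ± 0.14 at 5 µM (limma adjusted p = 9.56e-05 and 0.000871), while the ratio of mean FPKM was 9.32 and 5.21. Rragc, the alternative partner, was far more abundant, at 52.8 and 54.8 FPKM with PBS, 84.7 and 80.0 FPKM at 5 µM and 104 and 110.0 FPKM at 10 µM, and rose by 0.97 ± 0.06 at 10 µM (limma adjusted p = 0.000111). Rragd made up 1.87% and 3.03% of the summed FPKM of Rragc and Rragd in PBS samples, 7.80% and 8.03% at 5 µM and 10.6% and 10.6% at 10 µM. Rraga had 31.6 and 31.4 FPKM with PBS, 36.4 and 35.7 FPKM at 5 µM and 41.5 and 44.4 FPKM at 10 µM and rose by 0.43 ± 0.05 at 10 µM (limma adjusted p = 0.00116). At 5 µM its rise of 0.19 ± 0.05 (limma adjusted p = 0.0371) was lost when any sample of the 5 µM or PBS group was left out (0.116 to 0.155). Slc38a9, for an arginine transporter and sensor that binds Ragulator and the Rag GTPases, had 2.26 and 2.09 FPKM with PBS, 2.28 and 2.37 FPKM at 5 µM and 2.64 and 2.53 FPKM at 10 µM, with changes of 0.18 at 10 µM (95% interval 0.01 to 0.35, limma adjusted p = 0.0811) and 0.07 at 5 µM (95% interval -0.10 to 0.24).

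Between the doses, 12 of the 34 genes rose and 4 fell at 10 µM against 5 µM, beside 11.4% and 8.5% of all genes tested (together 19.9%), with a median log2 change of 0.15 against 0.04. The 12 were Rragd, Rragc, Rraga, Atp6v0d2, Atp6v0c, Atp6v1c1, Atp6v1d, Atp6v1g1, Atp6v1h, Clcn7, Mcoln1 and Lamtor3, all of which had also risen at both doses against PBS. Clcn7 rose further by 0.41 ± 0.05 (limma adjusted p = 0.00478), Rragd by 0.76 ± 0.14 (limma adjusted p = 0.0183) and Atp6v0d2 by 0.56 ± 0.09 (limma adjusted p = 0.0138). The 4 that fell were Tpcn1 (-0.46 ± 0.06, limma adjusted p = 0.00743), Tpcn2 (-0.27 ± 0.05, adjusted p = 0.0144), Atp6v0a1 (-0.43 ± 0.06, adjusted p = 0.00735) and Lamtor4 (-0.40 ± 0.06, adjusted p = 0.00906). Atp6v0a1 and Lamtor4 are also among the genes that rose at 5 µM against PBS, a comparison that uses the same 5 µM samples. Another 9 genes rose at both doses against PBS without a called difference between the doses. This comparison leaned on few samples: 6 genes were called without 5 µM replicate 1, 3 without 5 µM replicate 2 and 9 without 10 µM replicate 2. The share of all genes called in those fits was 8.53%, 6.83% and 11.4%. Clcn7 and Tpcn1 alone were called in each of the 15 alternatives tried. Without 5 µM replicate 2 the limma adjusted p was 0.0898 for Rragd, 0.0692 for Atp6v0d2, 0.0776 for Mcoln1, 0.0802 for Tpcn2, 0.0511 for Atp6v0a1 and 0.0603 for Lamtor4.

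The other 9 genes reached at most 0.607 FPKM in any sample and did not pass the filter. Atp6v0e2, an alternative e form, had 5 and 7 recovered fragments in PBS samples, 19 and 18 in the 5 µM samples and 29 and 41 in the 10 µM samples, or 0.0780 and 0.104 FPKM with PBS, 0.303 and 0.273 FPKM at 5 µM and 0.504 and 0.607 FPKM at 10 µM, and made up at most 1.13% of the e transcripts. With no filter, where 19.4% of 30856 genes were called at 10 µM, Atp6v0e2 rose at 10 µM against PBS (log2 change 0.51, limma adjusted p = 0.00514) and was not called at 5 µM (limma adjusted p = 0.0719). Atp6v1b1, Atp6v1c2 and Atp6v0a4, forms best known from acid-secreting cells of the kidney, had at most 4 fragments in a sample. Atp6v1e2 had between 3 and 8 fragments, Atp6v1g3, Atp6ap1l and Atp6v1fnb had at most 2, and Atp6v0c-ps1 had none. With no filter Atp6v1fnb was also called at 10 µM (limma adjusted p = 0.0313), on 2 and 2 fragments at 10 µM against 0 and 0 in PBS samples. Atp6v1b2, Atp6v1c1 and Atp6v1e1 held at least 99.47% of the summed FPKM of their B, C and E families in every sample.

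Genes that assemble the pump or lie around it moved in both directions. Among 11 tested assembly factors and relatives of the RAVE complex, which brings V1 and V0 together, 4 rose and 3 fell at 10 µM (36.4% and 27.3%, beside 28.5% and 22% of all genes), with a median log2 change of 0.15 against 0.05 over all genes tested. At 5 µM 4 rose and 1 fell (36.4% and 9.09%, beside 15.1% and 15.4% of all genes). Tmem199, an assembly factor, had 8.26 and 8.13 FPKM with PBS, 12.4 and 12.5 FPKM at 5 µM and 15.5 and 16.2 FPKM at 10 µM (log2 change at 10 µM 0.87 ± 0.05, limma adjusted p = 8.92e-05). Wdr7, a RAVE-related subunit, rose by 0.54 ± 0.06 (limma adjusted p = 0.00114) and Tbc1d24 by 0.44 ± 0.06 (limma adjusted p = 0.00243), while Rogdi, another RAVE-related subunit, fell by 0.68 (limma adjusted p = 0.00313). Of 28 other lysosomal and endosomal channels and transporters, 14 rose and 6 fell at 10 µM (50% and 21.4%, median log2 change 0.19), and 12 rose and 1 fell at 5 µM. Mcoln2, a relative of Mcoln1, had 6.36 and 5.82 FPKM with PBS, 12.6 and 13.9 FPKM at 5 µM and 21.8 and 21.5 FPKM at 10 µM and rose by 1.68 ± 0.07 at 10 µM (limma adjusted p = 3.99e-05). Mfsd12, which encodes a lysosomal cysteine importer, rose by 1.38 ± 0.05 (limma adjusted p = 3.8e-05). Slc9a9, which encodes an endosomal sodium-proton exchanger, had 16.4 and 16.2 FPKM with PBS, 7.13 and 8.51 FPKM at 5 µM and 2.51 and 2.46 FPKM at 10 µM and fell by 2.31 on the log2 scale (limma adjusted p = 3.01e-05), and the cation channel gene Trpm2 fell by 1.44 (limma adjusted p = 0.000143).

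Of 33 tested genes of amino acid sensing by mTORC1, 10 rose and 5 fell at 10 µM (30.3% and 15.2%, median log2 change 0.06), and 9 rose and 3 fell at 5 µM (27.3% and 9.09%). Over all genes 28.5% rose and 22% fell at 10 µM and 15.1% and 15.4% at 5 µM, so the share that rose at 10 µM was near that of all genes. Sesn1, which encodes a leucine-binding inhibitor of the pathway, had 28.4 and 26.5 FPKM with PBS, 13.5 and 13.9 FPKM at 5 µM and 6.86 and 6.79 FPKM at 10 µM (log2 change at 10 µM -1.86 ± 0.05, limma adjusted p = 1.81e-05). Its relative Sesn2 had 13.0 and 13.2 FPKM with PBS, 16.6 and 15.4 FPKM at 5 µM and 26.0 and 26.7 FPKM at 10 µM and rose by 0.96 ± 0.05 (limma adjusted p = 0.000106). Castor2, related to an arginine sensor, fell by 1.11 at 10 µM (limma adjusted p = 6.06e-05), and Deptor, for an inhibitor bound to mTOR, fell by 1.09 (limma adjusted p = 0.000242). Among the 8 genes of the PIKfyve complex and lysosomal phosphoinositides, 4 rose and 1 fell at 10 µM (median 0.19), with Vac14, the scaffold of the complex, at 11.7 and 11.7 FPKM with PBS, 15.9 and 16.6 FPKM at 5 µM and 17.998 and 18.5 FPKM at 10 µM (log2 change at 10 µM 0.60 ± 0.05, limma adjusted p = 0.000277). Pip4p1 and Mtmr2, for lysosomal and endosomal phosphoinositide phosphatases, rose by 0.24 ± 0.05 and 0.25 ± 0.05 at 10 µM (limma adjusted p = 0.00751 and 0.00831), the second not without PBS replicate 1 (0.0536). Ocrl, for another phosphoinositide phosphatase, fell by 0.39 (limma adjusted p = 0.00248).

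Over all 85 related genes tested, Tcirg1 among them, 51 were called at 10 µM and 37 at 5 µM, which is 60.0% and 43.5%, beside 50.5% and 30.5% of all genes. The count at 5 µM was 21 to 23 when any 1 sample of the 5 µM or PBS group was left out, where 14.9% to 16.8% of all genes were called. The TFEB family was split in direction, and whether it acts on the promoters above was not tested. Tfeb had 5.27 and 5.42 FPKM with PBS, 7.59 and 7.82 FPKM at 5 µM and 8.05 and 9.58 FPKM at 10 µM and rose by 0.62 ± 0.08 at 10 µM (limma adjusted p = 0.00193). Tfec had 6.03 and 6.33 FPKM with PBS, 4.55 and 4.39 FPKM at 5 µM and 2.63 and 2.66 FPKM at 10 µM and fell by 0.98 on the log2 scale (limma adjusted p = 0.00011). Tfe3 had 16.3 and 16.0 FPKM with PBS, 14.4 and 14.6 FPKM at 5 µM and 13.4 and 13.6 FPKM at 10 µM and fell by 0.24 (limma adjusted p = 0.00626), and Mitf, at 11.03 and 10.8 FPKM with PBS, 10.3 and 11.2 FPKM at 5 µM and 13.1 and 12.1 FPKM at 10 µM, changed by 0.18 (95% interval 0.03 to 0.34, limma adjusted p = 0.0554). These are mRNA levels, and the activity of this family also depends on its place in the cell, which was not measured here.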

How the data were processed

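The authors deposited 1 table of FPKM (fragments per kilobase of gene for each 1000000 fragments of the library) for 54446 entries with a column for each of the 6 samples, and all value columns were used. The table's name and its values gave the unit. Per the submitters' processing notes, reads had been aligned with HISAT2 to GRCm38. The sources used here do not give its version, the counting tool, the annotation or the use of strand, and no label explains a prefix (DXM) that the column names share. Per the labels' protocols, TRIzol had been used to extract total RNA for Illumina libraries. Gene IDs matched GENCODE M21 for 99.93% of entries.

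Of the low values (up to 20 fragments) 98.8% to 99.0% were whole fragments within 0.1 once multiplied by exon length, which gave the library totals, and 1 fragment of 1 kilobase was worth between 0.0352 and 0.0414 FPKM. The tested genes named by the rule held at least 138 fragments in each sample. FPKM are not counts, so limma 3.58.1 under R 4.3.3 fitted log2(FPKM + 1) of the 12722 genes that reached 1 FPKM in 2 or more samples (intensity trend, all 6 samples, 3 residual and 2.72 prior degrees of freedom). All tests were two-sided, p-values were adjusted by Benjamini-Hochberg over these genes, and the fit was tested on simulated data. The pseudocount of 1 FPKM understates the change of low genes. All genes of the rule are named, and from each related list up to 4 with the smallest p at 10 µM against PBS, though only a selection of marker genes is printed. The members and lists were chosen with earlier results of these data known. Shared exon bases were taken from GENCODE, and 7 of the tested genes share over 5% of them with another gene. Alternatives were another pseudocount, other filters and scalings, no trend, only the groups compared, a replicate block, voom on the recovered fragments, and each sample left out.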

Additional observations from a re-analysis of the deposited data

How the results depend on the processing

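Of the calls of the 34 genes, 23 of 25 at 10 µM against PBS, 15 of 26 at 5 µM against PBS and 2 of 16 at 10 µM against 5 µM held in each of 15 alternatives. Leaving out each sample in turn gave 24 to 26, 15 to 27 and 3 to 14 calls in these comparisons, and for the related genes 38 to 47 (51 with all samples), 21 to 39 (37) and 9 to 18 (24). With no filter, 12 of 91 related genes were called between the doses, beside 4.38% of all genes. With a sample left out, 36% to 47% of all genes were called at 10 µM against PBS. The share was 14.9% to 30.3% at 5 µM against PBS and 6.83% to 15.1% at 10 µM against 5 µM. Fewer samples leave fewer degrees of freedom. With a replicate block the counts for the 34 genes were 25, 24 and 15, and for the related genes 47, 32 and 17. Of all genes, 47.3%, 26.8% and 16.3% were called in that fit. The deviations of same-numbered samples correlated at -0.055 to 0.0373 over all genes tested. The labels state no pairing, and this check cannot exclude a shared origin that moved few genes. Voom on the recovered fragments called 27, 24 and 19 of the 34, beside 51.3%, 33.8% and 25% of all genes. Direction reversed for small changes that were not called. Atp6v1g2 at 5 µM was -0.0011 under median-of-ratios scaling and -0.017 under voom, and ran from -0.069 to 0.097 with a sample left out. Lamtor5 at 10 µM was -0.0046 under median-of-ratios scaling. With a sample left out, Lamtor2 at 10 µM ran from -0.17 to 0.017, Mitf at 5 µM from -0.077 to 0.036, and between the doses Atp6v1f ran from -0.083 to 0.032 and Atp6ap2 from -0.038 to 0.0087. The cause was not tested. With 1 FPKM added to each gene, the share of Tcirg1 was 73.8% with PBS and 78.7% at 5 µM, and that of Rragd 4.11% with PBS, 8.84% at 5 µM and 11.2% at 10 µM. No scaling moved the median of all genes by over 0.1.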
